A study of Mus musculus with 4 samples.

Results

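A set of 10 genes of the actin filament was followed in mouse embryonic stem (ES) cells deficient in Myh9, which encodes a non-muscle myosin II heavy chain. They are Srf, the transgelin genes Tagln and Tagln2, the calponin genes Cnn2 and Cnn3, the tropomyosin genes Tpm1, Tpm2, Tpm3 and Tpm4, and Wdr1, and they were found by name among the 50600 gene rows of the deposited table. Each of the 10 names matched 1 row, and all 10 passed the filter on low values. RNA-seq had been made from the OG2ES line, labelled as derived from the inner cell mass, in 2 wild-type (WT) libraries and 2 libraries of genotype Myh9 KO. The comparison of the groups asks how gene expression differs without Myh9, in a study of colony shape and pluripotency. Both groups grew in mouse ES medium with 2i, an inhibitor pair that keeps such cells naive, with no other treatment. The labels do not say how Myh9 was removed, how many clones the Myh9 KO group holds, or whether the replicates were separate cultures. The p-values below therefore measure the spread between these libraries, and a feature of the KO line cannot be told apart from the loss of Myh9.

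SRF (serum response factor) binds a short DNA element, the CArG box, and drives many genes of the actin cytoskeleton. Its cofactors MRTF-A and MRTF-B are held back by monomeric actin and released when actin polymerises, while another set of cofactors, the ETS-domain TCF proteins, links SRF to immediate early genes. Tropomyosins lie along the actin filament and govern which myosins and which severing factors reach it. Calponins and transgelins share a calponin homology region and bind and bundle filaments, and WDR1 (AIP1) works with cofilin to take filaments apart. Several of these genes are best known as products of smooth muscle or of contractile fibroblasts, and others are expressed in most cells.

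Promoter sequence was available for 9 of the 10 genes, in 10 windows of 300 bases (RefSeq, GRCm38.p6, 250 bases before to 50 after a start site), and 2 of these genes, Srf and Cnn2, held a CArG box. Among 32851 such windows of all genes, 1.63% held one. The stretches around the boxes are shown because they are the part of these promoters that bears on the link to SRF. Bases are 5′ to 3′ on the gene's strand, with CArG boxes in capitals.
Srf: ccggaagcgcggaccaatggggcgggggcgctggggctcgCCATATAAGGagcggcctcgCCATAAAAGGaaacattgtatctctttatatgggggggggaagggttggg
Cnn2: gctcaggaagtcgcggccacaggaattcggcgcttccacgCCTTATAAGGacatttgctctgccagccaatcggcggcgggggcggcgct
The Srf stretch is chr17:46556175-46556284 on the minus strand, and its boxes begin 82 and 62 bases before the RefSeq start. The Cnn2 stretch is chr10:79988504-79988593 on the plus strand, with its box 56 bases before the start. The windows of the other 7 genes with a sequence (Tagln2, Cnn3, Tpm1, Tpm2, Tpm3, Tpm4 and Wdr1) had no match to these letters, which says nothing of boxes elsewhere in those genes. The hexamer GGAATG, searched on both strands, occurred in the windows of Tagln2 (2 matches) and Tpm1 (1 match) and in 14.7% of all windows.

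The deposited values are whole numbers that sum to between 992098 and 992317 in each library, as per-million values do once their decimals are dropped, so they were not treated as counts and depth is unknown. Differences were tested with limma on log2(value + 1) over the 11231 genes whose values averaged 1 or more. A gene is said to have risen or fallen only where its Benjamini-Hochberg adjusted p was under 0.05 both in that test and in a second fit with random decimals added to the values, because equal whole numbers in replicates leave no spread. Differences are given as log2FC ± SE, the log2 fold change of Myh9 KO against WT on the log2(value + 1) scale with its standard error from the first test, and n = 2 libraries per group throughout. Myh9 itself had values of 83 and 100 in WT against 9 in each Myh9 KO library (log2FC -3.20 ± 0.12, limma adjusted p = 0.00675). All 10 ES cell markers checked were above 0 in every library (summed value 10004 and 10226 in WT, 8777 and 8624 in Myh9 KO). By both fits 2 of them fell, Sox2 (log2FC -0.54 ± 0.03, adjusted p = 0.0178) and Dppa5a (-0.53 ± 0.05, adjusted p = 0.0274), against 5.81% of all tested genes. By both fits 0 rose, against 5.14%. In limma 1 was higher at an unadjusted p under 0.05 (Zfp42), and with random decimals 2 were higher, against 11.1% of all tested genes. These 2 were Zfp42 (log2FC 0.46, adjusted p = 0.0951 in limma and 0.00321 with random decimals) and Klf4 (0.28, 0.187 and 0.0487). Dppa5a, at 4755 and 4841 in WT, then 3438 and 3205 in Myh9 KO, carried most of the difference in the sum, and the median of the list was -0.01.

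By both fits 3 of the 10 genes fell (Cnn2, Cnn3 and Wdr1), against 5.81% of all tested genes, and 1 rose (Tagln2), against 5.14%. Among the 6584 genes whose values averaged 10 or more these background shares were 7.03% and 6.93%. The first test alone called the same 3 genes lower and 1 higher, against 7.96% and 7.17% of all tested genes. The changes were small: the mean value fell by 28.1% for Cnn2, by 23.1% for Cnn3 and by 17.7% for Wdr1, and rose by 24.1% for Tagln2. Log2 fold changes of the 10 genes ran from -0.71 (Tagln) to 0.31 (Tagln2), with 8 negative and 2 positive and a median of -0.19. The median of all tested genes was 0.00, and 49.2% of them were negative. In 8 of the 10 genes the WT and Myh9 KO values did not overlap (6 lower and 2 higher), which was also so for 53.5% of all tested genes (27.3% lower and 26.2% higher). When the libraries were centred on their medians, the share of higher genes among all calls of the first test went from 47.4% to 58.7%.

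**Figure D1:**
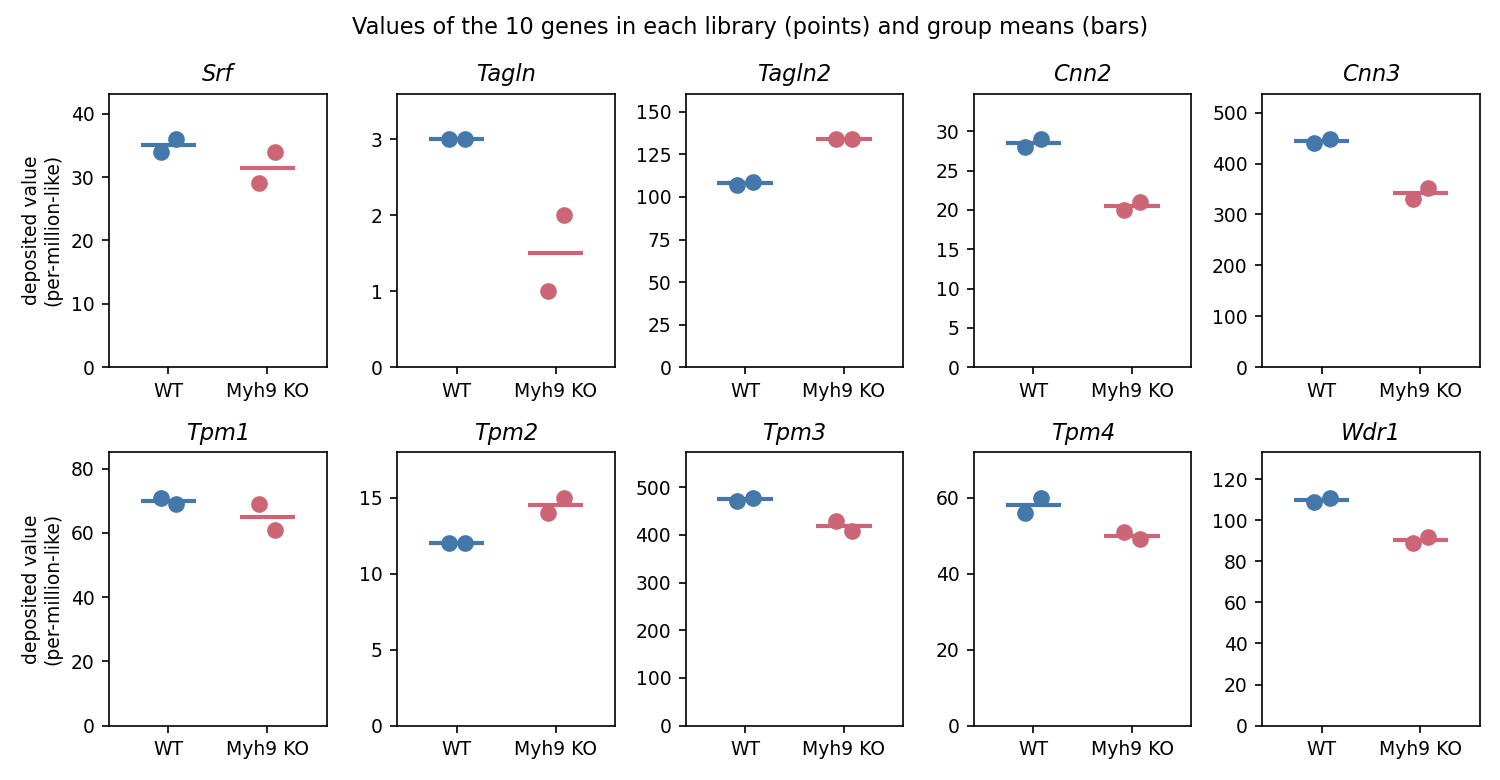
Deposited value (per-million-like whole numbers, linear axis from 0) of each of the 10 genes in WT (blue) and Myh9 KO (red), with 1 point per library and a bar at the group mean. The Tagln2 points stand higher in Myh9 KO (134 and 134 against 107 and 109), the Cnn2, Cnn3 and Wdr1 points stand lower, and the Srf and Tpm1 points touch or overlap between groups.

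Srf, the transcription factor for which the set is named (ENSMUSG00000015605, mm10 chromosome 17, 46546839 to 46556162), had values of 34 and 36 in WT against 29 and 34 in Myh9 KO. The higher Myh9 KO library equalled the lower WT library, so the groups were not separated. The log2FC was -0.15 ± 0.10 (limma adjusted p = 0.422, and 0.315 with random decimals). The 95% confidence interval of the fold, 0.70 to 1.16, still holds a modest fall or rise. After correction for GC content and transcript length, the log2FC was -0.27 and passed the test (adjusted p = 0.0357). Srf has the highest GC content of the 10 (64.4%), and the median over the class of tested genes between 56.1% and 76.3% GC was 0.11 on the log2FC scale.

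Both calponin genes fell. Cnn3, acidic calponin (ENSMUSG00000053931, chromosome 3, 121426497 to 121458207), was at 440 and 448 in WT and at 331 and 352 in Myh9 KO. Both Myh9 KO libraries lay well under both WT libraries, with a log2FC of -0.38 ± 0.04 (limma adjusted p = 0.0383, and 0.00128 with random decimals). After correction for GC content and transcript length, the log2FC of Cnn3 was -0.25 (limma adjusted p = 0.029), and that of Cnn2 was -0.52. The median log2 fold change of chromosome 3 was -0.093, and relative to it the value of Cnn3 was -0.29. Cnn2, the calponin of non-muscle and smooth muscle cells whose promoter carries the CArG box above (ENSMUSG00000004665, chromosome 10, 79988584 to 79996062), had values of 28 and 29 in WT against 20 and 21 in Myh9 KO. Its log2FC was -0.46 ± 0.04 (adjusted p = 0.0276, and 0.0103 with random decimals). The ratio of Cnn3 to Cnn2 was 15.7 and 15.4 in WT, then 16.6 and 16.8 in Myh9 KO, a small difference in which the groups did not overlap. Of the 50-base words of Cnn3, 24% occur in other genes, against 0% for Cnn2, and its exons overlap Gm42928 on the opposite strand. The smooth muscle calponin Cnn1 was listed at 0 in all 4 libraries. With any 1 library left out, the limma adjusted p rose to between 0.0546 and 0.213 for Cnn3 and between 0.0871 and 0.146 for Cnn2. With random decimals Cnn3 passed in each of those 4 fits (highest adjusted p = 0.017), while Cnn2 did not pass without WT 1 (0.0548) or WT 2 (0.0744).

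Of the transgelins, small relatives of the calponins, Tagln2 rose. Tagln2, the widely expressed transgelin (ENSMUSG00000026547, chromosome 1, 172500047 to 172507380), had values of 107 and 109 in WT against 134 in each Myh9 KO library. It was the only one of the 10 genes called higher, with a log2FC of 0.31 ± 0.02 (limma adjusted p = 0.0116, and 0.00587 with random decimals). Tagln, the smooth muscle transgelin also called SM22-alpha and a classic SRF target (ENSMUSG00000032085, chromosome 9, 45929619 to 45936058), was near the bottom of the table, at 3 in each WT library and 1 and 2 in Myh9 KO. These values did not overlap but did not pass (log2FC -0.71 ± 0.26, adjusted p = 0.198), and dropped decimals weigh heavily at this level. In limma Tagln passed without Myh9 KO 1 (adjusted p = 0.00756) or Myh9 KO 2 (0.00408), where the remaining replicates are equal, and with random decimals in none of the 4 fits that leave out a library. Tagln shares 58.3% of its 50-base words with other genes, 55.4% with the antisense gene Gm48529, and its exons also overlap Pcsk7 on the opposite strand. The libraries were not described as strand-marked, so its reads may be split with those genes. Tagln3, the neuronal transgelin and not one of the 10, fell from 10 in each WT library to 5 in each Myh9 KO library. Its log2FC was -0.87 ± 0.02 (limma adjusted p = 0.00334, and 0.00564 with random decimals). Equal whole numbers within each group make that SE too small. Tagln2 made up 89.2% and 89.3% of the summed values of the 3 transgelins in WT, then 95.7% and 95% in Myh9 KO. Without Myh9 KO 1 or Myh9 KO 2 the limma adjusted p of Tagln2 was 0.0742 and 0.0777, and with random decimals it was 0.0524 without WT 1.

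Tagln2 and the calponins can be set against each other within a library, which removes any scaling shared by both genes. The ratio of Cnn3 to Tagln2 was 4.11 in each WT library and 2.47 and 2.63 in Myh9 KO. The ratio of Cnn2 to Tagln2 went from 0.262 and 0.266 to 0.149 and 0.157. The ratio of Wdr1 to Tagln2 was 1.02 in each WT library and 0.664 and 0.687 in Myh9 KO. In none of these 3 ratios did the groups overlap. That was fixed in advance, because each numerator was lower and Tagln2 higher in Myh9 KO without overlap. All 3 ratios share Tagln2 as denominator, were chosen after the values were seen and carry no test.

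None of the 4 tropomyosin genes was called by both fits. Tpm3 (ENSMUSG00000027940, chromosome 3, 90072649 to 90100902), which encodes widely expressed cytoskeletal forms as well as slow muscle forms, had values of 471 and 478 in WT against 429 and 409 in Myh9 KO. Both Myh9 KO libraries were lower, with a log2FC of -0.18 ± 0.03 and a fold interval of 0.816 to 0.955. Relative to the median of chromosome 3 its value was -0.087. Tpm3 passed with random decimals (limma adjusted p = 0.0258) and not in the first test (0.0792), and 23.2% of its 50-base words also occur in the related gene Tpm3-rs7. Tpm4 (ENSMUSG00000031799, chromosome 8, 72134975 to 72153142), a cytoskeletal tropomyosin with 15.7% of its words in other genes, had values of 56 and 60 in WT against 51 and 49 in Myh9 KO. The groups did not overlap, and the log2FC was -0.21 ± 0.05 (adjusted p = 0.12). Tpm1 (ENSMUSG00000032366, chromosome 9, 67022590 to 67049406), the source of many muscle and non-muscle forms, had values of 71 and 69 in WT against 69 and 61 in Myh9 KO. Its groups met at 69, with a log2FC of -0.11 ± 0.08 (adjusted p = 0.451) and a fold interval of 0.766 to 1.12. Tpm2 (ENSMUSG00000028464, chromosome 4, 43514711 to 43523765), known from muscle and fibroblasts, had a difference of the opposite sign, at 12 in each WT library and 14 and 15 in Myh9 KO. Its log2FC of 0.25 ± 0.05 did not pass (adjusted p = 0.0786, and 0.205 with random decimals). In limma it passed without Myh9 KO 1 (0.0262) or Myh9 KO 2 (0.038), fits in which its remaining WT values are equal, and with random decimals it passed in none of the 4 fits that leave out a library.

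Tpm4 was the one gene of the 10 whose direction turned with a setting. After correction for GC content and transcript length its log2FC was 0.023 (adjusted p = 0.771). It has the lowest GC content of the 10 (45.9%) and lies on chromosome 8, whose 646 tested genes had a median log2 fold change of 0.21. Relative to that median its own value was -0.42. The part of GC content or of chromosome 8 in its value was not tested.

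The 4 tropomyosin genes summed to 610 and 619 in WT against 563 and 534 in Myh9 KO. Tpm3 held 77.2% of that sum in each WT library and 76.2% and 76.6% in Myh9 KO. Tpm1 held between 11.1% and 12.3% and Tpm4 between 9.06% and 9.69%, and for each of these the groups overlapped. The share of Tpm2 was 1.97% and 1.94% in WT, then 2.49% and 2.81% in Myh9 KO, without overlap. Each tropomyosin gene makes several proteins by alternative promoters and splicing, and the table has 1 row per gene, so a switch between muscle and cytoskeletal forms would not be seen here. In bulk RNA, fewer cells that express a gene and less RNA per cell cannot be told apart.

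**Figure D2:**
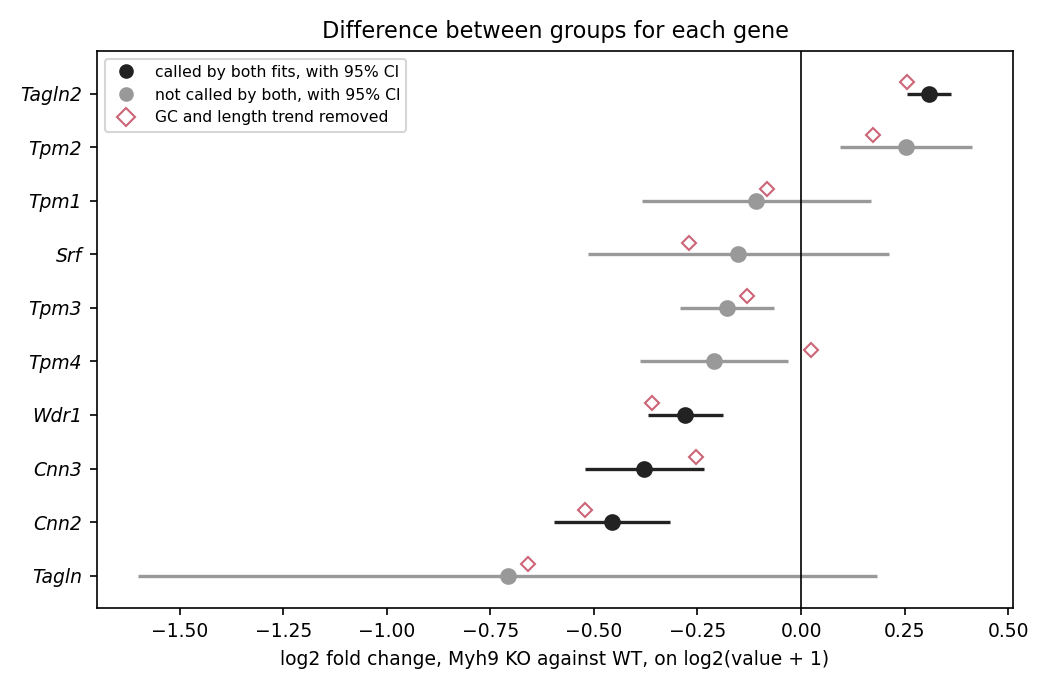
Log2 fold change of each gene, Myh9 KO against WT, on log2(value + 1) (x axis), with the 95% confidence interval from limma as a line. Black points (Tagln2, Wdr1, Cnn3, Cnn2) were called by both fits, grey points were not, and open diamonds give the value after correction for GC content and transcript length, where Tpm4 moves from -0.21 to 0.023.

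Wdr1, the cofilin partner (ENSMUSG00000005103, chromosome 5, 38526813 to 38563221), fell from 109 and 111 in WT to 89 and 92 in Myh9 KO. The groups were well apart relative to their spread, with a log2FC of -0.28 ± 0.03 (limma adjusted p = 0.0301, and 0.012 with random decimals). With any 1 library left out the limma adjusted p lay between 0.0779 and 0.166. With random decimals it passed without either Myh9 KO library and not without WT 1 (0.0684) or WT 2 (0.0891). Median centring gave a log2 fold change of -0.23 and an adjusted p of 0.0526.

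The values were read as per length, which is not settled, as described under the processing. On that reading the levels of the 10 genes can be ordered. In WT, Tpm3 (471 and 478) stood above Cnn3 (440 and 448), and both exceeded the next pair, Wdr1 (109 and 111) and Tagln2 (107 and 109), which met at 109. Tpm1, Tpm4, Srf, Cnn2 and Tpm2 followed in that order without overlap between neighbours, and Tagln came last. In Myh9 KO, Tagln2 (134 in each library) stood above Wdr1 (89 and 92). The levels of Cnn3 (331 and 352) and Tpm3 (409 and 429) were further apart than in WT, with a ratio of Cnn3 to Tpm3 of 0.772 and 0.861 against 0.934 and 0.937. The order of the other genes was unchanged.

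**Figure D3:**
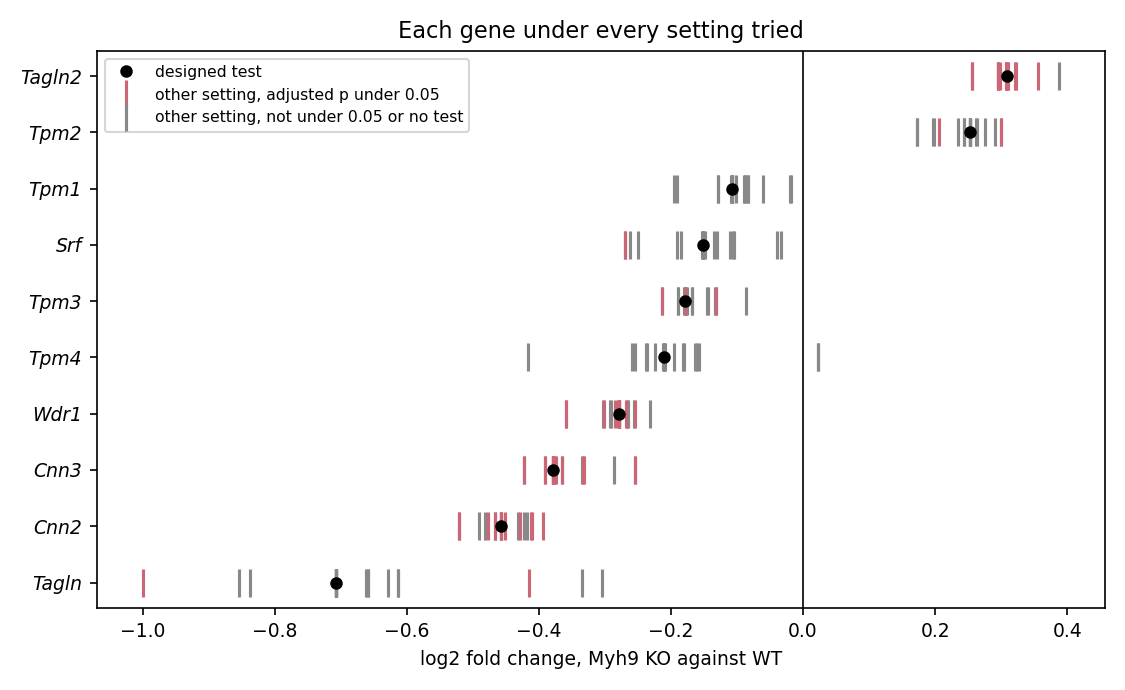
Log2 fold change of each gene (x axis) under the designed test (black point) and under every other setting tried (ticks, red where the adjusted p was under 0.05). Tagln2 and Tpm2 stay right of 0, Tpm4 has 1 position right of 0 at 0.023, and all other ticks are left of 0.

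The rest of the pathway was taken from lists of related genes that share no member with the 10. Of all tested genes, 5.14% were higher and 5.81% lower by both fits, and 11.1% and 12% with random decimals. Of 10 tested SRF cofactors and regulators, 1 fell by both fits and 0 rose, with a median log2 fold change of 0.00. In limma 1 was higher and 1 lower, both after adjustment and at an unadjusted p under 0.05. The higher one was Elk3, named after its values were seen, at 2 in each WT library and 4 in each Myh9 KO library. It passed in limma (adjusted p = 0.00182) and not with random decimals (0.0515). The gene that fell was Rhoa, the small GTPase that promotes actin polymerisation upstream of MRTF (497 and 482 in WT, 395 and 390 in Myh9 KO, log2FC -0.32 ± 0.02, adjusted p = 0.0201). The MRTF genes, looked up after their values were seen, had values of 13 and 14 and of 14 and 18 for Mkl1 (MRTF-A), and of 4 and 5 in both groups for Mkl2 (MRTF-B). The muscle cofactor Myocd was listed at 0 throughout.

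Of 19 tested actin-linked SRF targets outside the 10, 3 rose and 3 fell by both fits, against 5.14% and 5.81% of all tested genes. Their median log2 fold change was -0.05. With random decimals alone 3 were higher and 6 lower, against 11.1% and 12% of all tested genes. By unadjusted limma p under 0.05 there were 4 higher and 6 lower. The lower genes added with random decimals, named after their values were seen, were Myl9, Csrp1 and Pdlim7. Myl9 went from 8 and 10 to 2 and 3 (log2FC -1.52, adjusted p = 0.0589 in limma and 0.00251 with random decimals). Csrp1 had a log2FC of -0.43 (0.0864 and 0.00502) and Pdlim7 of -0.41 (0.131 and 0.0159). Cyr61 (50 and 53 in WT, 24 and 27 in Myh9 KO, log2FC -0.99 ± 0.08, adjusted p = 0.0258) and Ctgf (41 and 45 in WT, 21 and 22 in Myh9 KO, log2FC -0.97 ± 0.07, adjusted p = 0.019) encode secreted matricellular proteins that are also YAP targets. The cytoplasmic actin gene Actg1 fell from 2884 and 2888 to 2192 and 2247. The genes that rose were Zyx, Itga5 and Actb, named after their values were seen, with log2 fold changes of 0.92, 0.34 and 0.23. Chromosome position was not taken into account for these listed genes. The 555 tested genes of chromosome 6 had a median log2 fold change of 0.45. The part of a chromosome-wide shift in the values of the listed genes was not tested. The falls of Cnn2, Cnn3 and Wdr1 and the rise of Tagln2 stood beside other SRF-linked genes called in either direction. Of 8 tested immediate early targets, Mcl1, an anti-apoptotic BCL2 relative, fell from 168 and 165 to 119 and 121 (log2FC -0.47 ± 0.02, adjusted p = 0.00753), and 0 rose by both fits (1 higher in limma at an unadjusted p under 0.05, and 1 with random decimals).

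For genes whose proteins act with tropomyosin or with WDR1, calls by both fits are set against 10.9% of all tested genes, either direction. Of 7 tested tropomyosin-side genes (tropomodulins, caldesmon, troponins and Lima1), 0 were called by both fits (1 higher and 1 lower in limma at an unadjusted p under 0.05). After adjustment limma called 0 higher and 1 lower (Tnni1, adjusted p = 0.00406, and 0.225 with random decimals). With random decimals 1 was higher (Tnnt1, adjusted p = 0.00225, and 0.0771 in limma) and 0 lower. Tnni1 and Tnnt1 were named after their values were seen. The pointed-end cap gene Tmod3 had values of 11 and 12 and of 10 and 9 (adjusted p = 0.175), and Lima1, which stabilises filaments, of 21 and 23 and of 20 and 18 (adjusted p = 0.245). Of 15 tested genes of cofilin-driven disassembly, 1 fell and 1 rose by both fits, with a median log2 fold change of 0.10. With random decimals alone 1 was higher and 3 lower, and by unadjusted limma p under 0.05 there were 2 higher and 3 lower. The added lower genes, named after their values were seen, were Twf1 (log2FC -0.78, adjusted p = 0.0616 in limma and 0.00187 with random decimals) and Dstn (-0.67, 0.069 and 0.000904). Cfl2, the muscle-type cofilin, fell from 13 in each WT library to 8 in each Myh9 KO library. Its log2FC was -0.64 ± 0.02 (limma adjusted p = 0.00552, and 0.0122 with random decimals), with an SE that again rests on equal whole numbers. Coro1b, a coronin, rose from 133 and 135 to 154 and 158 (log2FC 0.22 ± 0.02, adjusted p = 0.0323).

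**Figure D4:**
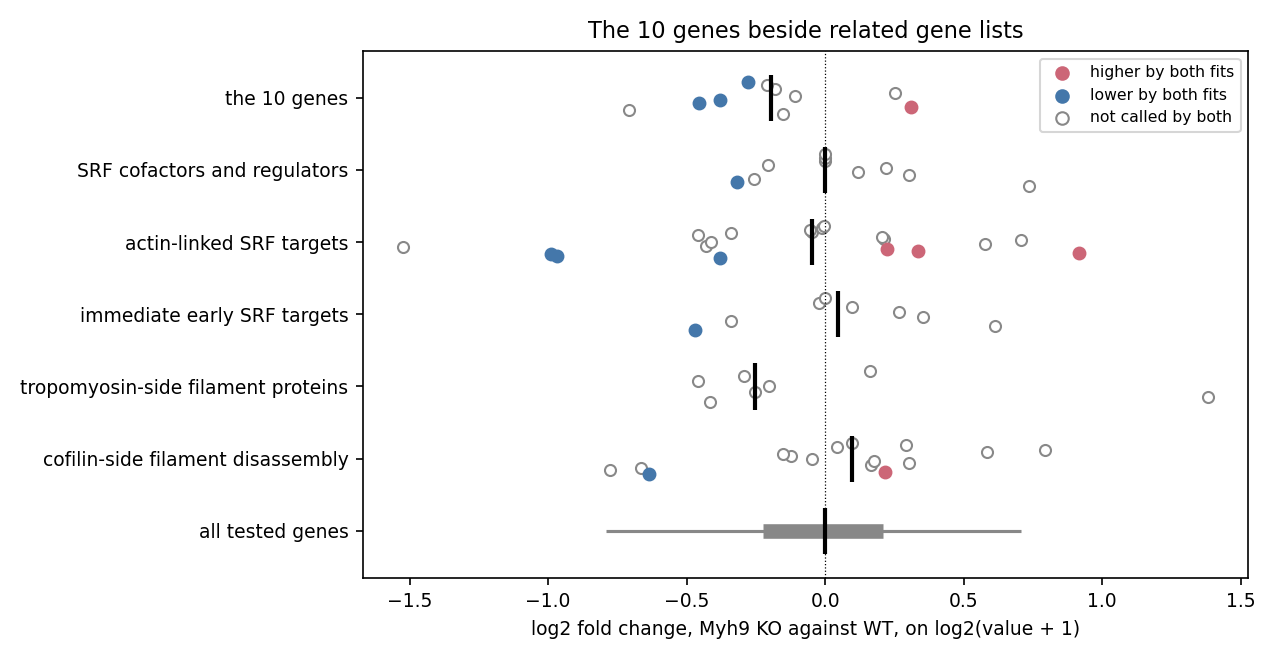
Log2 fold change, Myh9 KO against WT, of the 10 genes and of the tested members of 5 related lists (1 point per gene), with a black bar at each median. The bottom row gives all tested genes (thick bar from the 25th to the 75th percentile, thin line from the 5th to the 95th). Filled points were called by both fits, and the median of the 10 genes lies at -0.19 against 0.00 for all tested genes.

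Because several of the 10 genes are abundant in fibroblasts and muscle, markers of those cells were read in the same libraries. Of 16 feeder fibroblast markers, 12 were listed at 0 in all 4 libraries, Col1a1, Col1a2, Col3a1 and Dcn among them. The list summed to between 8 and 13 per library, most of it from Col5a1 (4 to 5) and Thy1 (3 to 5). Of 10 smooth muscle markers, 7 were listed at 0 throughout, Myh11 and Myocd included, and the list summed to 36 and 38 in each group. Most of that sum came from Smtn (27 and 26 in WT, 25 and 26 in Myh9 KO) and Des (9 and 10, then 11 and 12). Of 12 striated muscle markers 9 were listed at 0 throughout, and the list summed to 13 and 12 in WT against 17 and 16 in Myh9 KO. Of the 2 tested striated markers Myl7, an atrial myosin light chain, rose by both fits, from 10 and 9 to 14 and 14 (log2FC 0.52 ± 0.06, limma adjusted p = 0.0454, and 0.0239 with random decimals). The other, Tnni1, was at 3 in each WT library and 2 in each Myh9 KO library (log2FC -0.415 ± 0.012). It was lower in limma (adjusted p = 0.00406) and did not pass with random decimals (0.225). The part of these markers in the values of the 10 genes was not tested. Of the feeder and smooth muscle markers, 3 and 2 were tested and 0 were called by limma, also at an unadjusted p under 0.05 and with random decimals. A gene listed at 0 may still be expressed below the unit of the table.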

How the data were processed

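The authors deposited 1 table with a whole-number value per gene and library, used here as a score because its unit is not given in the sources used here. Bowtie2 2.2.5, RSEM 1.3.0 and bcl2fastq, and the builds mm10 and hg38, stand in the submitters' processing notes with no role given. Of 50600 identifiers 50376 were found in GENCODE vM21 (mm10). Over 72 ribosomal protein genes the values did not rise with transcript length (slope -0.61 of log2 value on log2 length). Levels were therefore read as per length. The slope was not flat either and rests on these genes alone, so the unit is not settled.

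Differences were tested with limma 3.58.1 in R 4.3.3 (trend option) on log2(value + 1), with no replicate block, over genes whose values averaged 1 or more, with Benjamini-Hochberg adjustment over all of these. Random decimals (uniform, 0 to 1) were added in 25 draws and the median adjusted p taken. The procedure was tested on simulated data. GC content and length are those of each gene's longest GENCODE transcript, and words of 50 bases were compared with all other transcripts. Members and lists were chosen with earlier results of these data known. Named genes are the members, Myh9, and from each list up to 3 called members with the smallest p, or else up to 2 with the highest mean. That rule does not cover the cell markers, nor other genes said to be named after their values were seen. Named cell markers are those called by limma or with random decimals, those holding most of the feeder and smooth muscle sums, and defining ones listed at 0. Depth is unknown, so no counting error is given. Alternatives covered pseudocount, filter, scaling, gene properties, replicate block and left-out libraries.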

Additional observations from a re-analysis of the deposited data

How the results depend on the processing

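Each of the 10 genes except Tpm4 kept its direction under every setting run (Tagln was below the filter that requires a mean of 5). For Tpm4 the log2 fold change was 0.023 after correction for GC content and transcript length, without and with a replicate block (adjusted p = 0.771 and 0.789). The cause was not tested. That correction gave 5 of the 10 genes lower in place of 3, with Srf and Tpm3 added. Over the whole table it gave 1465 genes higher in place of 805, and 1227 lower in place of 894. Random decimals gave 1244 genes higher and 1350 lower, against 805 and 894.

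Leaving out 1 library gave 599 to 1032 genes higher and 796 to 1030 lower, or 651 to 1306 and 649 to 1560 with random decimals (a combination chosen after seeing the data). Of the 10 genes, 0 to 1 were then lower in limma, or 1 to 4 with random decimals, and 1 was higher in limma, or 0 to 1 with random decimals. These were not the same genes throughout: without Myh9 KO 1 or Myh9 KO 2 limma called Tagln lower and Tpm2 higher, and Cnn2, Cnn3, Wdr1 and Tagln2 were not called. Without WT 1 or WT 2 the gene called higher was Tagln2. Where limma gave 0 lower, without WT 1 or WT 2, 2 were lower at an unadjusted p under 0.05.

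The replicate numbers share no stated origin, and deviations of same-numbered libraries correlated at 0.041 over tested genes and 0.199 over those whose values averaged 10 or more. With a replicate block limma called 10 genes higher and 44 lower over the whole table, and 0 higher and 0 lower of the 10 genes (2 and 3 at an unadjusted p under 0.05). That fit leaves 1 residual degree of freedom. With the block and the correction for GC content and length together, 1 of the 10 genes was higher and 3 were lower. Over the whole table that fit gave 1123 genes higher and 920 lower.

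With 2 libraries per group and whole-number values precision is limited, and depth is unknown.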
